A study of Mus musculus with 5 samples.

Results

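Chromatin that is open enough to be cut by DNase I appears as DNaseI hypersensitive sites (DHSs), and such sites were followed here at genes of sterol sensing and cholesterol efflux. These were 9 of 21000 protein-coding genes, 5 of nuclear receptors (Pparg, Ppard, Nr1h2, Nr1h3 and Rxra), 3 of efflux (Abca1, Abcg1 and Apoe) and Srebf1. A site was assigned to a gene if it lay within 1 kb of any annotated transcription start site (TSS) of that gene. It was also assigned if the gene had the nearest protein-coding TSS and the site lay inside the gene or up to 100 kb from its TSS. Sites of the different stages that coincided were joined into regions, and 82 of 68846 regions belonged to the 9 genes. They held 158 of the 135173 listed sites.

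Cells sense their sterol content in part through nuclear receptors. The liver X receptors LXR-alpha (Nr1h3) and LXR-beta (Nr1h2) bind oxysterols, and the peroxisome proliferator-activated receptors PPAR-gamma (Pparg) and PPAR-delta (Ppard) bind fatty acids and their derivatives. Both kinds bind DNA together with a retinoid X receptor such as RXR-alpha (Rxra). The LXRs raise transcription of Abca1 and Abcg1, transporters that move cholesterol out of the cell, of Apoe, an apolipoprotein that carries it away, and of Srebf1, which encodes a master regulator of fatty acid synthesis. Macrophages, which engulf dying cells and lipoproteins, depend on this export.

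DNaseI-seq was carried out on 5 populations grown in culture from 1 line of mouse embryonic stem cells (strain 129). The line has a GFP reporter of Brachyury, so all 5 populations carried it. Mesoderm (MES) was sorted as Bry.GFP+ and FLK1-, hemangioblasts (HB) as Bry.GFP+ and FLK1+, hemogenic endothelium (HE) as Bry.GFP+, Tie2+, Ckit+ and CD41-, hematopoietic progenitors (HP) as CD41+ and macrophages (MAC) as CD11b+. Each stage gave 1 list of sites, so n = 1 per stage. The title of the MAC sample alone names 2 replicates, so its list, the longest, may rest on more libraries than the others, and the part of this in the MAC-only counts below cannot be told apart from that of the stage. There was no replicate spread to set a difference against, no test was made, and every difference below describes these 5 lists.

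The lists held 17734 (HP) to 37456 (MAC) sites with median widths of 600 bp (MAC) to 1200 bp (HE). They give positions only, so the depth behind them is unknown from the values, and a gene without a site in a list is 1 for which no site was listed. Promoters of the sorting markers were looked up as a check of the labels. Itgam (CD11b) and Csf1r had a promoter site in MAC only, Itga2b (CD41) in HE and HP, Tek (Tie2) and the endothelial gene Cdh5 in HE only, and T (Brachyury) in MES and HB. Kit had one in MES, HB, HE and HP, and Kdr (FLK1) had one in all 5 stages. Against the sort stood the Kdr site in MES, sorted as FLK1-, the Itga2b site in HE, sorted as CD41-, and the lack of a T site in HE, sorted as Bry.GFP+.

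Stretches of 9 regions are shown first, as examples of the regions described below. They were chosen after the motif matches were seen, for their stage pattern and the matches they hold. All are from the + strand of GRCm38 (mm10), and capitals mark exact matches to the short motifs spelled out further below. The first is at chr2:91196810-91196913, upstream of Nr1h3, and held a site in MAC only.
Nr1h3 upstream: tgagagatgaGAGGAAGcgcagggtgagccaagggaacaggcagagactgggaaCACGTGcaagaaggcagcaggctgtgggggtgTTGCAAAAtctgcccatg
The next are in Abca1, the first in intron 5 at chr4:53115900-53116086 and the others upstream of the gene at chr4:53181608-53181775 and chr4:53196484-53196536. The first 2 lie in regions listed in MAC only and the last in a region listed in all 5 stages. Of that region, the HB site ended at 53196415, before the last stretch begins, and the MES site at 53196517, before its GAGGAAG.
Abca1 intron: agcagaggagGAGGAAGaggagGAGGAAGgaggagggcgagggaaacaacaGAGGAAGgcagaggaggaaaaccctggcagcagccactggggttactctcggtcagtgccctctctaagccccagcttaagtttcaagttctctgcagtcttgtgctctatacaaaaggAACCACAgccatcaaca
Abca1 upstream, MAC: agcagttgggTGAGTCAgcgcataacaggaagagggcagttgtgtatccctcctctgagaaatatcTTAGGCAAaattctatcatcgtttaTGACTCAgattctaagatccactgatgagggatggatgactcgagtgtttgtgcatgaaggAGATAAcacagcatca
Abca1 upstream, all stages: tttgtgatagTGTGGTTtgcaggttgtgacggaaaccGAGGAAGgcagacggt
Abcg1 gave a pair with opposite patterns, upstream of the gene at chr17:31038554-31038683 in MAC only, and in intron 2 at chr17:31091515-31091621 in HB only.
Abcg1 upstream, MAC: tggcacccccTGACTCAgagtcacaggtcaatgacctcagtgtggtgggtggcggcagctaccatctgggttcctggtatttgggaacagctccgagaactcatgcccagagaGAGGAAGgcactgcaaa
Abcg1 intron, HB: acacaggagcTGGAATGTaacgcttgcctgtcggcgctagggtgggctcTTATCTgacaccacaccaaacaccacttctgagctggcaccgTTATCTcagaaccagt
In Pparg, chr6:115480350-115480496 lies in intron 7 and was listed in HE and MAC. In Rxra, chr2:27688022-27688198 lies in intron 1 and was listed in MAC only.
Pparg intron: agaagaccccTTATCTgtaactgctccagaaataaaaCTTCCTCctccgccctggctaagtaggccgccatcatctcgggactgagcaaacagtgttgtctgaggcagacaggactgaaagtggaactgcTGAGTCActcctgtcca
Rxra intron: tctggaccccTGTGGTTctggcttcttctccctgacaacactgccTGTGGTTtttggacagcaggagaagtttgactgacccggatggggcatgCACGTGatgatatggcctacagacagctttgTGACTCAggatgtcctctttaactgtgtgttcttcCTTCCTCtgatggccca
The last are 2 short stretches of a Srebf1 promoter region listed in all 5 stages, at chr11:60222849-60222877 and chr11:60222897-60222922. They hold a sterol regulatory element (SRE), the word bound by the protein that Srebf1 itself encodes, and an E-box.
Srebf1 SRE: aggcccccgaGTGGGGTGAcgcggcgtca
Srebf1 E-box: tggttttggtCACGTGcccagcgccc

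To see when the promoters of these genes were accessible, sites within 1 kb of any annotated TSS were looked up in each list. Of the 9 genes, a promoter site was found for 8 (MES), 8 (HB), 8 (HE), 5 (HP) and 7 (MAC). Over all 21000 protein-coding genes the shares were 57.2% (MES), 58.9% (HB), 61.7% (HE), 50.1% (HP) and 50.2% (MAC). Ppard, Nr1h2, Nr1h3, Abca1 and Srebf1 had a promoter site at every stage, a pattern shared by 43.4% of all genes. The other 4 each had a pattern of their own. Pparg lacked a promoter site only in HP, as did 1.79% of genes. Apoe had one in MES, HB and HE (3.96% of genes), Abcg1 in MES, HB and MAC (0.138%, 29 genes) and Rxra in HE only (3.09%). Thus none of these 4 had a promoter site in HP, the shortest list.

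Several of these genes start at more than 1 place, and the answer depended on which start was asked. Joining TSS within 1 kb of each other gave 21 groups of start sites, 14 of them with a curated mRNA and the others with predicted transcripts only. A site lay within 1 kb in all 5 stages for 9 groups and in no stage for 7 groups. With curated TSS alone, the counts in stage order were 8, 8, 7, 5 and 6 of the 9 genes, and 4 had one in all 5. No share over all genes is given for the start groups or the curated TSS, so these counts describe the 9 genes only.

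**Figure D1:**
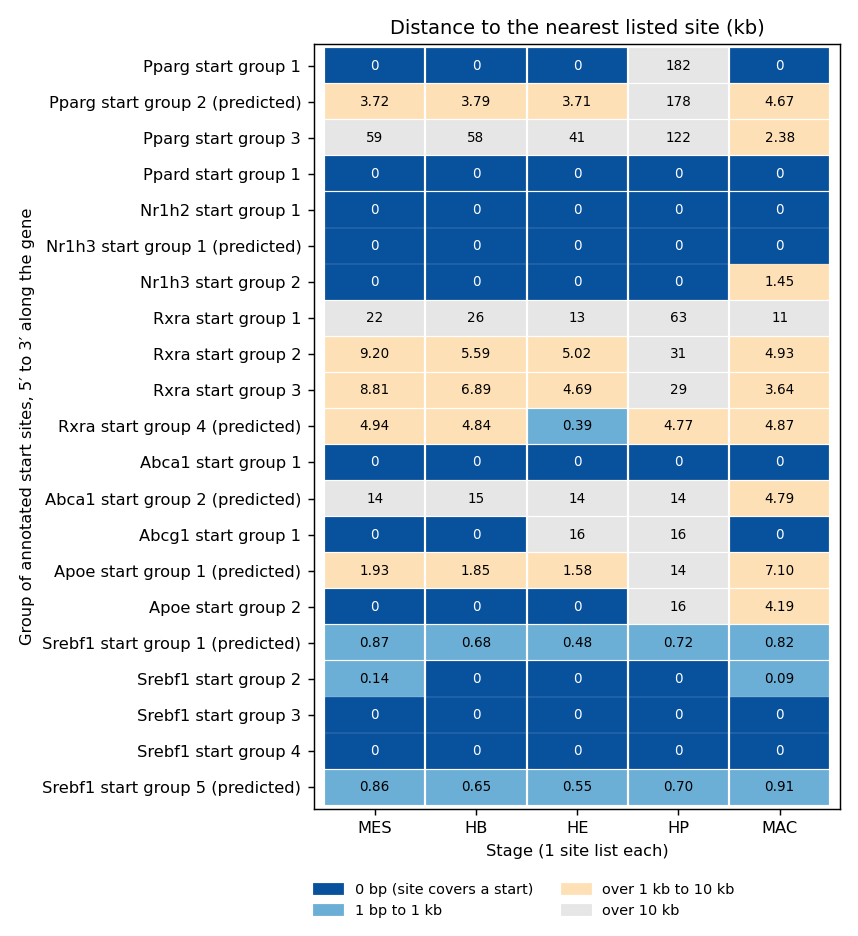
Distance in kb from each of the 21 groups of start sites (rows, in transcription order, predicted-only groups marked) to the nearest listed site in each stage (columns, 1 list each). Dark blue cells are groups with a site on a start, as for Abca1 group 1 in all 5 stages, and grey cells, as for Pparg group 1 in HP, are over 10 kb from any site.

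Nr1h3, the gene of LXR-alpha, spans chr2 91184061 to 91202829 on the minus strand. Its curated TSS, at 91195035 and 91195116, were covered by a site from MES to HP, with widths of 900, 1200, 1100 and 700 bp in stage order. In MAC no site lay within 1 kb of them. The nearest MAC site, 700 bp wide at 91196625 to 91197324, ended 1448 bp from this group of starts. Its region, centred 1.86 kb upstream, held no site of any other stage. The gene counted as having a MAC promoter site only through a predicted TSS at 91202829, which shares its region with the promoter of Acp2, the gene of a lysosomal acid phosphatase. That region held a site at every stage. So the site nearest the curated LXR-alpha starts lay on them from MES to HP and upstream of them in MAC.

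Nr1h2, the gene of LXR-beta, lies on chromosome 7 at 44549616 to 44553968. A site covered its promoter at every stage, with widths of 1300, 1400, 1600, 1300 and 1200 bp in stage order. The MAC site was among the wide ones of its list, since 14.3% of the MAC promoter sites were at least as wide. A single further region, 7.18 kb upstream, held sites in HE (700 bp), HP (300 bp) and MAC (400 bp). The 2 LXR genes therefore differed in MAC, where the Nr1h2 start was covered by a site and the curated Nr1h3 starts were not.

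Pparg, the gene of PPAR-gamma, spans 115360879 to 115490404 on chromosome 6. Its first group of starts encodes isoform 1. There the MES site was 400 bp wide and lay at 115361898 to 115362297, while the HB (1300 bp) and HE (1400 bp) sites ran from 115360930 and 115360909 onwards. The MAC site was again 400 bp wide but lay at 115360950 to 115361349, on the most upstream curated starts, at 115360951 and 115361144. The first predicted start, at 115360879, lay outside it. The MES and MAC sites did not touch each other, and both overlapped the HB and HE sites. Against their own lists the MES and MAC sites were narrow, as 96.5% and 89.9% of the promoter sites there were at least as wide. The HE site was not wide in its list either, where the share was 71.8%. In HP the nearest site was 182 kb from this promoter. Keeping only sites at least as wide as the median of their list left a Pparg promoter site in 2 stages.

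The second curated promoter of Pparg, at 115422066, starts isoform 2, the form best known from fat cells. No list had a site within 1 kb of this start group. The MAC list came nearest with a site of 400 bp at a distance of 2384 bp, whereas the nearest HE, HB and MES sites were 40.6, 58.5 and 58.7 kb away. In and around Pparg, 10 of its 13 regions held a site in MAC, 3 in HE, 2 in HB, 2 in MES and 0 in HP. Sites could be assigned to Pparg over 177 kb, and of the 9 genes only Rxra had a lower density than its 7.34 regions per 100 kb. Of the 13 regions, 8 were listed in MAC only. At least as many were found at 1.12% of all genes, a share that takes no account of such lengths. Among these 8, 4 lay 17.3 to 39.3 kb upstream and the others within the gene. One was the promoter itself, where the deposited MAC interval lay within those of HB and HE but the 500 bp windows around the middles overlapped by only 70 and 41 bp, short of the overlap at which regions were joined. The remaining distal regions lay in the 3′ part of the gene. A region in coding exon 6 and one in intron 7, shown above, were listed in HE and MAC, and the neighbour of the latter, 560 bp on, in MES and HB. These neighbours were separate by their middles only, since the deposited HB interval overlapped the HE interval by 579 bp and the MAC interval by 520 bp, and the MES interval overlapped them by 311 and 252 bp.

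Ppard, the gene of PPAR-delta, lies at 28232754 to 28301469 on chromosome 17 and has a single TSS. A site covered it at every stage, with widths of 1100, 1200, 1300, 1200 and 500 bp. In MAC a further site of 400 bp lay in intron 1, 0.834 kb downstream. Of its 8 regions, all 8 held a site in MAC, 4 in HP, 4 in HE, 3 in HB and 3 in MES. As many or more were found at 2.95% (MAC), 2.43% (HP), 10.5% (HE), 11.2% (HB) and 9.03% (MES) of all genes. Listed in all 5 stages were the promoter, an intron 2 region at 24.3 kb and a region 8.73 kb upstream that lies within the neighbouring gene Def6. An intron 2 region at 27.4 kb held sites in HE, HP and MAC. The 4 MAC-only regions rested on sites of 100 to 900 bp, and 3 of the 4 were under the median width of the MAC list. The intron 1 site among them was apart from the promoter by its middle only, as its interval overlapped the HE promoter interval by 136 bp and that of MES by 4 bp, and 3 MAC-only regions remained when whole intervals were joined.

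Rxra, the gene of the shared partner RXR-alpha, spans 27676445 to 27763319 on chromosome 2. None of its 3 curated starts had a site within 1 kb at any stage. From the start of isoform 1, at 27677201, the nearest sites were 10.7 kb away in MAC, 13.5 kb in HE, 22.3 kb in MES, 26.1 kb in HB and 62.7 kb in HP. Its HE promoter site lay 385 bp from a predicted TSS at 27735154, inside intron 1. The sites of Rxra lay elsewhere in and around the gene. Of 14 regions, 7 held a site in HE, 6 in MES, 5 in HB, 4 in MAC and 2 in HP. Inside the gene lay 10 of them, with a site in 3 (MES), 2 (HB), 5 (HE), 1 (HP) and 4 (MAC), and the other 4 lay upstream or downstream. As many regions or more were found at 0.952% (MES), 3.03% (HB), 2.52% (HE), 17.9% (HP) and 13.8% (MAC) of all genes, beside a median of 1 region per gene. Its territory, the stretch within which sites could be assigned to it, was 202 kb, the longest of the 9, and with 6.93 regions per 100 kb Rxra had the lowest density of the 9. Only 3 of its regions remained when sites narrower than the median of their list were dropped, and 7 with the widest sites up to the length of the shortest list. Only an intron 2 region, 63.2 kb from the isoform 1 start, was listed in all 5 stages, with sites of 700, 900, 1400, 1000 and 800 bp from MES to MAC. The other 13 included 4 listed in HE only, 3 in MAC only and 2 in MES only.

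RXR-alpha has 2 relatives, whose promoters differed from that of Rxra. Rxrb had a promoter site at every stage and Rxrg in MES, HB and HE. Rxrb was looked up after its values were seen.

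Abca1, which encodes the transporter that loads cholesterol onto lipid-poor apolipoprotein, lies at 53030789 to 53159988 on chromosome 4, on the minus strand. Its curated start, at 53159895, was covered by a site at every stage. The site was 600 bp wide in MES, 900 bp in HP, 1500 bp in HB and 1700 bp in both HE and MAC. MES and HP each listed a second site, of 500 and 400 bp, just downstream in intron 1. The MAC interval covered both of these whole, whereas the HB and HE intervals covered 402 and 410 bp of the MES site and 299 and 307 bp of the HP site. Set against its own list, the MAC site was among the widest, as 0.352% of all MAC sites and 0.948% of the MAC promoter sites were at least as wide. The HE site of the same width was not, since 37.6% of the HE promoter sites were at least as wide.

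**Figure D2:**
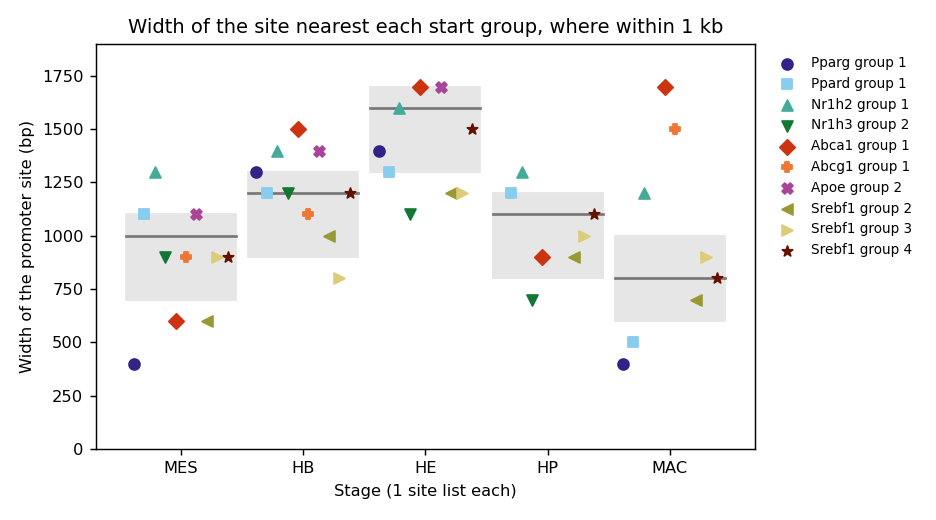
Width in bp of the site nearest each start group, where within 1 kb, by stage. Grey boxes and lines give the lower to upper quartile and the median of all promoter sites of the same list, and the MAC sites of Abca1 (1700 bp) and Abcg1 (1500 bp) sit above the MAC box.

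Around Abca1 the MAC list stood far from the others in number. Of its 18 regions, 16 held a site in MAC, against 3 in MES, 2 in HB, 5 in HE and 4 in HP. Only 0.200% of all genes (42) had at least 16 regions in MAC. Listed in MAC only were 12 regions, 7 in introns 1 and 5 of the gene and 5 upstream, at distances of 4.24 to 90.6 kb from the start. At least 12 such regions were found at 0.205% of genes. These shares of genes take no account of territory, which was 174 kb for Abca1. Its 10.3 regions per 100 kb lay below the density of Ppard, Nr1h2, Nr1h3, Abcg1 and Srebf1. Over all 68846 regions, 31.0% were listed in MAC only. The MAC-only sites of Abca1 were 200 to 1400 bp wide.

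The upstream side of Abca1 also held the regions it shared with earlier stages. A region 36.4 kb upstream was listed in all 5 stages, with widths of 600, 400, 1100, 700 and 600 bp in stage order. A region 27.4 kb upstream was listed in HE (1500 bp), HP (300 bp) and MAC (900 bp). A region 68.1 kb upstream was listed in HE and MAC but not in HP. A single region was listed in HE only, in intron 12 at 73.9 kb, and it was the only Abca1 region without MAC that lay away from the promoter.

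**Figure D3:**
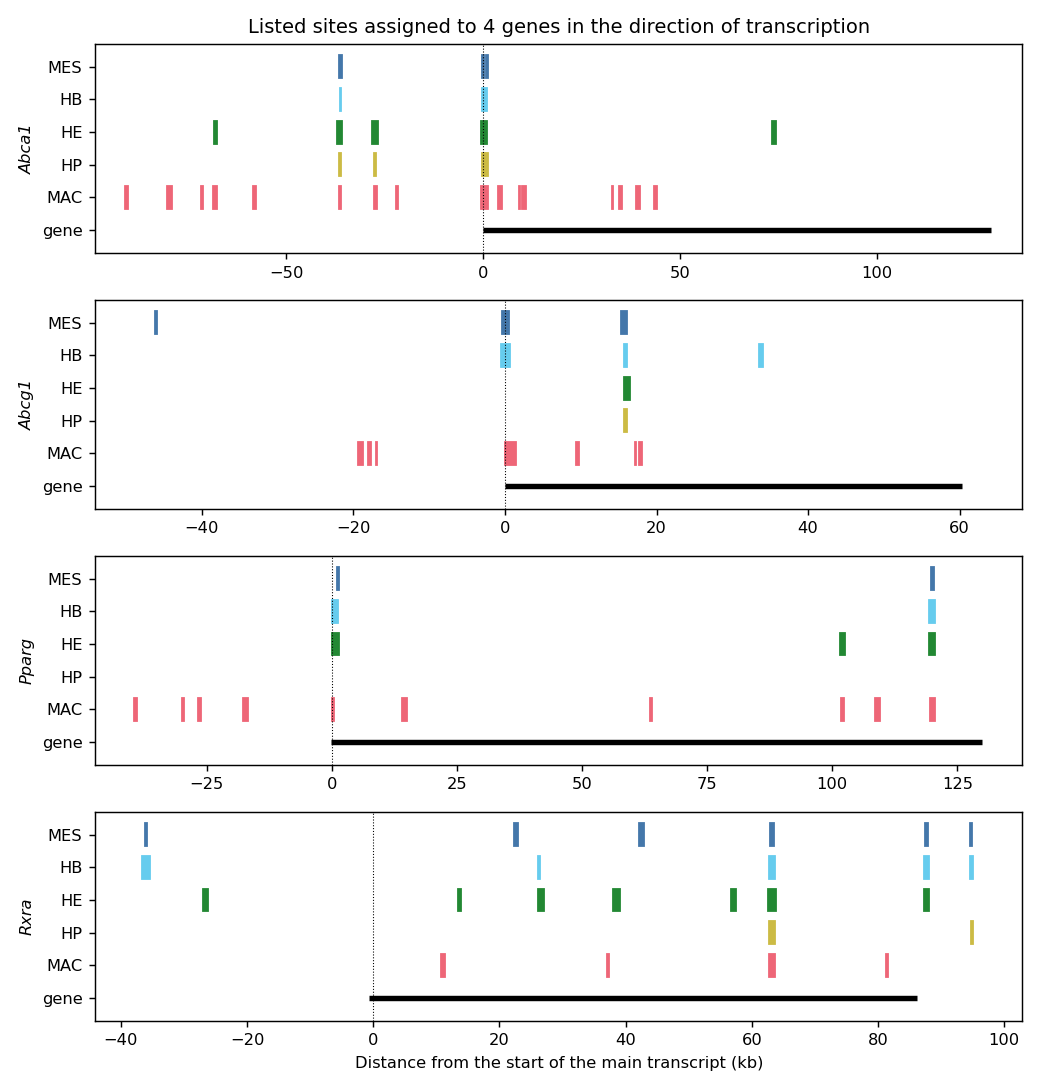
Sites assigned to Abca1, Abcg1, Pparg and Rxra by distance in kb from the start of the longest curated transcript, in transcription direction, with 1 lane per stage and the gene as a black bar. Boxes have the width of the site plus a thin outline, and the MAC lane of Abca1 holds 16 boxes against 2 in the HB lane.

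Abcg1, the gene of the transporter that passes cholesterol on to lipoprotein particles, spans 31057694 to 31117984 on chromosome 17. Its single TSS was covered by a site of 900 bp in MES, 1100 bp in HB and 1500 bp in MAC. In HE and HP the nearest sites were 15.7 kb from it. The MAC site reached from 31057688 to 31059187, starting at the TSS and running into intron 1, whereas the MES and HB sites lay across the TSS. Only 2.92% of the MAC promoter sites were at least as wide. The middle of the MAC site was thus shifted, and it counted as a region of its own although its interval overlapped theirs.

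At least 7 regions with a MAC site, as Abcg1 had, were found at 4.29% of all genes. Of the 11 Abcg1 regions, 7 held a site in MAC and all 7 were listed in MAC only, 3 of them 17.0 to 19.1 kb upstream and 3 in intron 2. The other 4 had no site in MAC. One of these, in intron 2 at 15.9 kb from the start, was listed in MES (700 bp), HB (500 bp), HE (800 bp) and HP (400 bp), and the nearest MAC-only regions lay 17.2 and 17.9 kb from the start. Another, at 33.8 kb, was listed in HB only with a site of 600 bp, and one 46.1 kb upstream in MES only. Thus no Abcg1 region was shared between MAC and an earlier stage, apart from the overlap of whole intervals at the promoter. The MAC-only sites had widths of 100 to 1500 bp, and 2 of the 7 reached the median width of their list, so a width limit there left 2.

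Apoe, the gene of apolipoprotein E, lies at 19696244 to 19701310 on chromosome 7, within a tight cluster of apolipoprotein genes. A site covered its curated starts in MES (1100 bp), HB (1400 bp) and HE (1700 bp). No HP site lay within 15.9 kb and no MAC site within 4189 bp of these starts. This was the only region assigned to Apoe, and a second was added when the nearest gene was chosen by gene body. Between the starts of Apoc2 and Tomm40, the MAC list held 3 sites. One of 800 bp lay 5.38 kb downstream of the first curated Apoe start and was assigned to Apoc1, another of 800 bp lay 15.2 kb downstream by Apoc4, and the third was at the Tomm40 promoter. The HP list held the Tomm40 site alone. In MES, HB and HE the Apoc1 side held sites at 7.06, 3.88 and 4.06 kb, and the Tomm40 promoter was listed at all 5 stages.

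Srebf1, the gene of SREBP-1, lies at 60199084 to 60224186 on chromosome 11, on the minus strand. RefSeq gives it 3 curated promoters, and all 3 had a site within 1 kb at every stage. At 60220627, the start of isoform a, widths were 900, 800, 1200, 1000 and 900 bp from MES to MAC. At 60210471, the start of isoform c, which the LXRs are known to induce, they were 900, 1200, 1500, 1100 and 800 bp in the same order. At 60222581, the start of isoform d, they were 600, 1000, 1200, 900 and 700 bp. The MES and MAC sites at the latter ended 136 and 86 bp short of the start. None of the 3 promoters was therefore tied to a stage in these lists.

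Beyond its promoters Srebf1 had 9 regions, of which 8 lay inside the neighbours Rai1 (5) and Tom1l2 (3). The 3 in Tom1l2, 31.2 to 50.9 kb upstream, were all listed in HE only, with widths of 800 to 1300 bp. Of the 5 in Rai1, 2 were listed in MAC only, and 2 were also assigned to Rai1 through a start of that gene. When the nearest gene was chosen by gene body, these 8 left and 4 regions remained. The ninth, in the last coding exon, was listed in all stages but MAC.

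**Figure D4:**
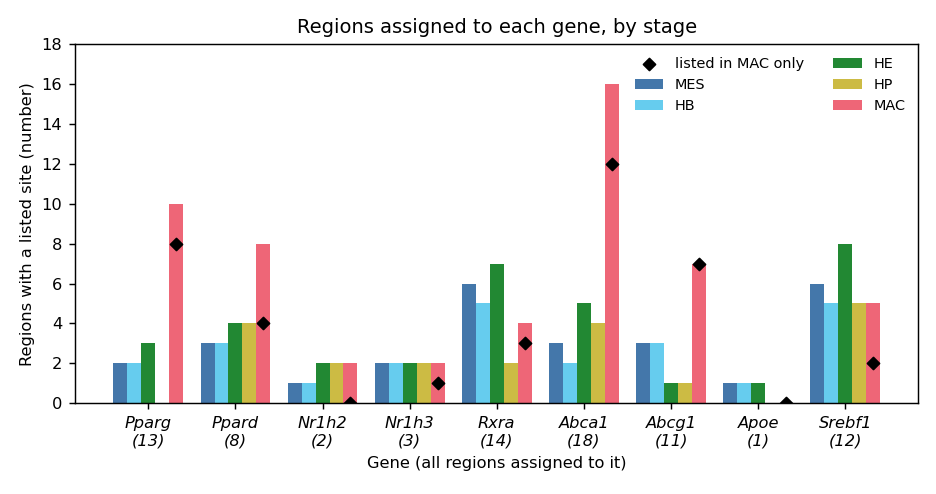
Number of regions with a listed site for each gene (total regions in parentheses) in each of the 5 stages. Diamonds give the regions listed in MAC only, and Abca1 has most with 12, followed by Pparg with 8 and Abcg1 with 7.

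Taking the 9 genes as a set, the regions with a site numbered 27 (MES), 24 (HB), 33 (HE), 20 (HP) and 54 (MAC). Their sites made up 0.123%, 0.0971%, 0.0991%, 0.113% and 0.144% of the lists in this order. Listed in 1 stage only were 51 regions (62.2%), beside 60.2% of all regions, and 11 (13.4%) were listed in all 5, beside 13.2%. In both respects the regions of these genes were close to the background. MAC-only regions numbered 37 (45.1%), beside 31.0% of all regions. They were 19 of 30 regions of the efflux genes, 16 of 40 of the receptors and 2 of 12 of Srebf1. Leaving out Abca1, 25 of 64 (39.1%) were listed in MAC only. With only the widest sites of each list, as many as the HP list holds, 18 of 51 regions (35.3%) were listed in MAC only, beside 20.5% of all regions under the same limit, and Abca1 and Pparg had 10 and 3 of them. Leaving out Abca1 under this limit, 8 of 37 (21.6%) were listed in MAC only, so the distance from the background then rested on Abca1. By location, 40 regions had their centre in an intron of the gene, 27 upstream, 7 downstream and 8 in exons.

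From stage to stage, 20 of 27 regions were kept from MES to HB, 19 of 24 from HB to HE, 17 of 33 from HE to HP and 14 of 20 from HP to MAC. These are 74.1%, 79.2%, 51.5% and 70.0%, beside 81.5%, 63.7%, 42.9% and 66.2% of all regions. From HP to MAC 40 regions were gained, which is 74.1% of those with a MAC site, beside 68.7% of all regions with one, and 6 were lost. One of the 6, the second HP site at the Abca1 promoter, lay within the MAC interval there and was lost by its middle only. Among the others were the Nr1h3 promoter, the intron 2 region of Abcg1 and the last exon of Srebf1.

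Base composition differed between the patterns. Regions were called CpG-rich where GC made up at least 50% of the central 500 bp and CpG reached at least 0.6 of its expected frequency. Of the 11 regions listed in all 5 stages 8 were CpG-rich, and so were all 7 of these that were promoters. Of the 37 MAC-only regions 1 was. Over all regions the shares were 78.4% for those listed in all 5 stages, 88.2% for the promoters among these and 0.884% for MAC-only regions, so the 9 genes followed the pattern of the whole lists. The median GC share was 62.2% in the former (51.8 to 70.8%) and 49.6% in the latter (31.8 to 73.6%), beside 63.2% and 46.4% over all such regions.

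To describe the sequence of the regions, exact matches on both strands were counted in the central 500 bp. Where a site was narrower than this, the window ran past it, so some matches lay outside every listed site. Direct repeats of the nuclear receptor hexamer AGGTCA, allowing G as the first base and T as the third, were searched first. They were spaced by 1 base (DR1, the element of PPAR with RXR) or by 4 bases (DR4, that of LXR with RXR). No region of the 9 genes held either. Both were rare everywhere, as DR1 was found in 0.497% and DR4 in 0.235% of all 52336 regions beyond 2 kb of a start. In whole deposited intervals of these genes there was no exact match either. Real sites often depart from the consensus, so this says only that these words were not in these windows. The SRE (TCACNCCAC) was found once, 39 bases from an E-box (CACGTG) in the Srebf1 promoter region shown above. It began 278 bp upstream of the isoform d start. It was found in 1.99% of all regions within 2 kb of a start.

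Words of blood cell factors were counted apart for regions beyond and within 2 kb of a start. The word of PU.1 (GAGGAAG, or the same ending in C), the ETS factor of myeloid cells, was in 31 of the 65 regions of these genes beyond 2 kb of a start (47.7%), beside 36.6% of all such regions. That of C/EBP (TTGCNNAA), the other main myeloid family, was in 19 (29.2%), beside 22.8%. AP-1 (TGAGTCA on either strand) was in 13 regions, which is 20.0%, beside 21.5%. RUNX (TGTGGTT, or the same ending in C) was in 16 regions, which is 24.6%, beside 22.5%. The GATA word (AGATAA) was in 13 regions, which is 20.0%, beside 27.3%. TEAD (ACATTCCA, with G also allowed as the first and T as the last base), bound by factors of the Hippo pathway, was in 4 (6.15%, beside 12.5%). None of these words contains another. Among MAC-only regions beyond 2 kb, PU.1 was in 18 of 33 (54.5%), beside 45.7% of all 19983, and C/EBP in 11 (33.3%), beside 30.4%. TEAD was in 0 of the 33, beside 7.47%. E-boxes were in 6 (18.2%), beside 8.77%. Within 2 kb of a start, PU.1 was in 2 of the 17 regions of these genes (11.8%, beside 28.5% of all such regions), C/EBP in 1 (5.88%, beside 12.7%) and RUNX in 1 (5.88%, beside 11.8%). AP-1 was in 1 (beside 6.39%), TEAD in 1 (beside 5.16%) and GATA in 2 (11.8%, beside 9.52%). Of these 17, 4 were MAC-only regions, beside 1391 such regions in all. TEAD was in 1 of the 4, in intron 1 of Ppard (beside 6.69%). PU.1 (beside 44.7%), C/EBP (beside 28.0%) and the E-box (beside 10.1%) were all in another 1, that upstream of Nr1h3.

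**Figure D5:**
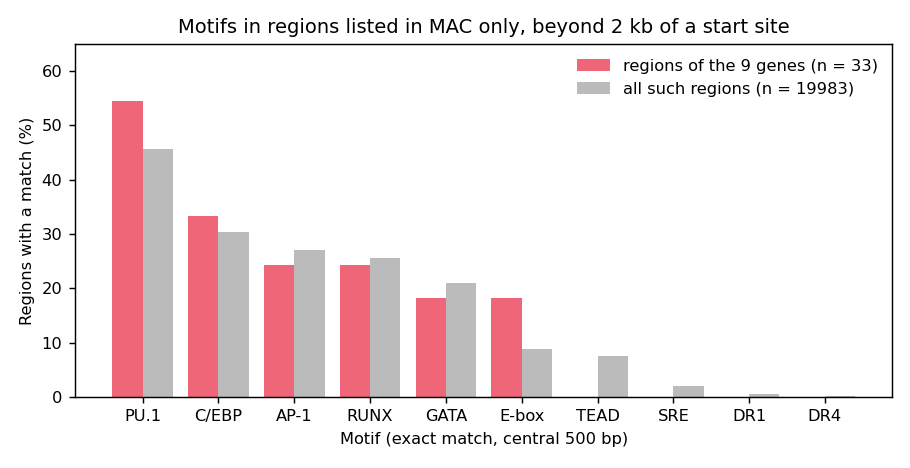
Share in % of regions with an exact motif match in the central 500 bp, among regions listed in MAC only and lying beyond 2 kb of a start, for the 9 genes (n = 33) and for all such regions (n = 19983). PU.1 is the most frequent in both sets (54.5% and 45.7%), and TEAD, SRE, DR1 and DR4 have no match in the regions of the 9 genes.

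By gene, the 12 MAC-only regions of Abca1 held PU.1 in 7, C/EBP in 6, AP-1 in 4, RUNX in 3 and GATA in 2, and 1 held no match. Over all MAC-only regions beyond 2 kb of a start the shares were 45.7% (PU.1), 30.4% (C/EBP), 27.1% (AP-1), 25.5% (RUNX) and 21.0% (GATA). Of all 82 regions of the 9 genes, 22 held no match. The intron 5 region shown above had 3 PU.1 words within 48 bases, and the MAC-only region 21.9 kb upstream had 2 AP-1 words around a C/EBP word. The upstream region listed in all 5 stages also had PU.1 and RUNX words, of which the PU.1 word lay outside the MES and HB sites. Of the 8 MAC-only regions of Pparg, PU.1 was in 4, GATA in 3 and C/EBP in 2, and 2 held no match. Of the 7 of Abcg1, PU.1 was in 3 and C/EBP and AP-1 in 2 each, and 2 held no match. In the region at 17.2 kb, both the PU.1 and the C/EBP word lay outside the 200 bp site. The HB-only region of Abcg1 held no PU.1, C/EBP or AP-1 word, but 2 TEAD and 2 GATA words, of which the stretch above shows 1 and 2. The region upstream of Nr1h3 had 2 PU.1 and 2 C/EBP words and an E-box. The MAC-only intron 1 region of Rxra shown above had 3 RUNX words beside AP-1, PU.1 and an E-box, while the other MAC-only region in that intron, 37.2 kb from the start, held no match. The intron 7 region of Pparg, listed in HE and MAC, had AP-1, PU.1, GATA and C/EBP words, and the exon 6 region with the same pattern had these words except GATA.

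The wider pathway was described with 78 genes in 5 lists. Of these, 60 had a promoter site in MES (76.9%), and the counts for HB, HE, HP and MAC were 59 (75.6%), 64 (82.1%), 56 (71.8%) and 56 (71.8%). For the 78 as a whole these lay above the shares of all genes given above. Sterol synthesis and its control by SREBP were nearly always accessible, as 25 of 27 genes (92.6%) had a promoter site in all 5 stages, beside 43.4% of all genes. Known LXR targets other than the members had one in 9, 8, 10, 9 and 10 of 16 genes from MES to MAC. These shares were close to those of all genes in MES (56.2%, beside 57.2%) and HE (62.5%, beside 61.7%), by less than a single gene. They were lower in HB (50.0%, beside 58.9%) and higher in HP (56.2%, beside 50.1%) and MAC (62.5%, beside 50.2%). In a list of 16 genes, these gaps amount to few genes. PPAR targets had one in 3, 3, 4, 3 and 3 of 8, which is 37.5% to 50.0% and below the share of all genes in each stage. For sterol uptake, storage, transport and oxidation the counts were 12, 12, 14, 11 and 10 of 15 (66.7% to 93.3%), and for partners and coregulators of the receptors 10, 10, 10, 8 and 8 of 12 (66.7% to 83.3%). Both lay above the share of all genes in each stage. Genes with a promoter site in no stage numbered 8 (10.3%, beside 32.4% of all genes), 4 LXR and 4 PPAR targets. Only Msr1, a scavenger receptor, and Ncoa1, a coactivator, had one in MAC only, and they are named after their values were seen. No share of all genes with this pattern is given, so whether it was frequent or rare here is not known.

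Some of these genes shared the pattern of a member, about as often as genes at large for Pparg (1.28% of the 78, beside 1.79%) and Apoe (3.85%, beside 3.96%) and in 5.13%, beside 3.09%, for Rxra, whose pattern rests on a predicted TSS. Ppargc1a, a coactivator of PPAR-gamma, had the pattern of Pparg. Cyp27a1, which makes an oxysterol, Rxrg and Vldlr, a lipoprotein receptor that also binds Apoe, had that of Apoe. Ch25h, which makes another oxysterol, Mbtps2, a protease that cuts SREBP, Nr1h4, the bile acid receptor, and Smpdl3a, an LXR target, had that of Rxra. None had the pattern of Abcg1.

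Genes with a like number of regions in each of the 5 stages were looked up among all protein-coding genes by Euclidean distance. For Abca1, with 3, 2, 5, 4 and 16 regions from MES to MAC, the nearest was Cebpb (4, 4, 4, 4 and 15), which encodes a C/EBP factor, at 2.65, then Asph and Syk, both at 3.16. For Pparg they were Amz1 at 1.00 and Adcy7 and Atp10a at 1.41, with 7 genes up to that distance. For Abcg1 they were Fosl2, an AP-1 gene, and Stum at 1.00 and Acap2 at 1.41, among 10. For Ppard they were Dnttip2 and Mcf2l at 1.00 and Ankdd1a at 1.41, among 10. Rxra had Inpp5f, Myo18a and Neurl1a at 1.41, and Srebf1 had Acot11, Eef1a1 and Rab4a at 1.73. The measure counts regions over 5 stages and says nothing of shared function.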

How the data were processed

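According to the methods of the study and per the labels, reads were trimmed with CutAdapt, aligned to mm10 with Bowtie and freed of duplicates with Picard. The authors ran DFilter with bins of 100 bp to call sites and deposited start and end positions with no score or read count. The notes also name HOMER. Versions were not stated. All widths were multiples of 100 bp. Totals of aligned reads were left out.

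RefSeq transcripts of GRCm38.p6 gave the TSS. Windows of 500 bp around the middle of each site were merged where they overlapped by at least 125 bp, as the study did. Middles took the place of summits. Motifs were searched in the central 500 bp, 10 in all. Scripts ran in Python 3.11.15 with NumPy 2.4.6 and Matplotlib 3.10.9, and the assignment and motif steps were tested on simulated sites with known answers, which they recovered.

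The members, gene lists and tests were chosen with earlier results of these data known. Named besides the 9 members were pathway genes sharing a member's promoter pattern where that was not open in all 5 stages, the 3 genes nearest in region counts for members with at least 5 regions, and genes sharing a promoter site. Alternatives were a TSS reach of 100 bp or 2 kb, curated TSS, 500 bp windows at promoters, a minimum width at the median of each list, the widest sites up to the shortest list, an overlap of 250 bp, whole intervals, a reach of 50 kb, the nearest gene by gene body and a motif window of 200 bp. Longer motif intervals, the same alternatives for the pathway lists and the groups of starts, and the MAC-only share without Abca1 were added after seeing the data.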

Additional observations from a re-analysis of the deposited data

How the results depend on the processing

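Each stage was 1 list, so no replicate could be left out. No paired analysis was possible because every stage has 1 sample. Of 150 recomputed values for the genes as a set, 124 stayed within 1.5 times the reported one, and of 162 for single genes 135 did. Most that moved came from stricter lists, which shortens them by construction. Keeping only sites at least as wide as the median of their list, 3 of the 9 genes had a promoter site in all 5 stages, 4 groups of start sites had one in all 5, and 45 regions remained, 9 of them in MES, 19 in HE, 9 in HP and 33 in MAC, with 22 in MAC only, 26 in 1 stage and 3 in all 5. With the widest sites up to the length of the shortest list, 51 regions remained, 19 in HE and 30 in MAC, with 18 in MAC only, 26 in 1 stage and 7 in all 5. The MAC-only share was 48.9% and 35.3% under these settings, and 42.9% to 45.9% under the others, beside 29.7%, 20.5% and 30.9% to 31.1% of all regions. Without Abca1 it was 34.4% and 21.6% under the stricter lists. Abca1 kept its count of MAC-only regions within 1.5 times under all settings, although a reach of 50 kb took it from 12 to 8. That of Abcg1 fell to 2 under both stricter lists and that of Pparg to 3 under the second. Ppard and Rxra kept 1 MAC-only region each under both, and Srebf1 kept 0. Pparg had a promoter site in 2 stages under both, and Rxra in 0 under both, with a reach of 100 bp and with curated TSS alone.

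In the central 200 bp, matches were found in 0 regions for the SRE, 4 for the E-box, 19 for PU.1, 9 for C/EBP, 8 for RUNX, 5 for GATA and 2 for TEAD. In whole intervals, they were found in 3 for the SRE, 25 for GATA and 10 for TEAD. The windows are shorter or longer by construction. Depth is unknown from positions, so a site missing from the shortest list, HP, cannot be told apart from one not called.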
